A study of Danio rerio with 21 samples.

Results

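A set of 10 genes of glycine, serine and glyoxylate metabolism was followed through every library of a zebrafish *pomgnt2* knockout series. They were chosen by symbol with earlier results of these data known, so shares of all genes set beside their counts are descriptions only. All 10 were found among the 36351 genes of the count table: *hao1*, *agxta*, *agxtb*, *agxt2*, *grhprb*, *hoga1*, *shmt1*, *sdsl*, *gnmt* and *mat1a*. RNA was sequenced from 21 pools of 4 to 6 whole larvae of the EK strain, with 3 pools in each of 7 groups. Crosses of Het females with Het males gave ZKO (-/-), Het (+/-) and WT (+/+) larvae at 5 dpf, all from +/- mothers. Crosses of ZKO females with Het males gave MZKO (-/-) and MHet (+/-) larvae, sampled at 5 dpf and again at 10 dpf, all from -/- mothers, so that each of these groups lacked functional maternal *pomgnt2*. The mutant line carried CRISPR-Cas9 frameshifts in both coding exons of *pomgnt2*, which encodes a glycosyltransferase that extends the sugar chain of alpha-dystroglycan. The mutation was inherited and so present in every cell, and the pools held whole animals with all of their tissues. The mother's genotype and the type of cross cannot be told apart, nor can age and batch, because the 5 dpf pools formed batch 1 and the 10 dpf pools batch 2. Nothing in the labels says whether pools of a group came from separate clutches, so p-values measure the spread between pools, estimated over all pools of a fit.

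In vertebrate liver, glyoxylate is a reactive intermediate that is kept low by conversion to glycine or glycolate, because oxidation turns it into oxalate. It arises in peroxisomes from glycolate and in mitochondria from hydroxyproline, the amino acid released by collagen breakdown, and in people inherited defects of AGXT, GRHPR and HOGA1 each cause primary hyperoxaluria. Glycine made in this way can be exchanged with serine through folate, or methylated to sarcosine at the expense of S-adenosylmethionine, the methyl donor that the liver makes from methionine. In mammals most of these enzymes are made mainly by hepatocytes, and several are also made by kidney tubule cells.

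By role, the first group handles glyoxylate. *hao1* (LL0000011926) encodes glycolate oxidase, which makes glyoxylate from glycolate, and *hoga1* (LL0000012228) encodes the aldolase of the last step of hydroxyproline breakdown, which releases glyoxylate. *agxta* (LL0000000487) and *agxtb* (LL0000000488) encode copies of alanine-glyoxylate aminotransferase, which turns glyoxylate into glycine. *agxt2* (LL0000000486) encodes a mitochondrial aminotransferase that in mammals also breaks down methylated arginines, and *grhprb* (LL0000011711) encodes a reductase of glyoxylate and hydroxypyruvate. The second group handles serine and glycine: *shmt1* (LL0000024686) encodes the cytosolic serine hydroxymethyltransferase, and *sdsl* (LL0000024363) a relative of serine dehydratase, which deaminates serine to pyruvate. The third handles methyl groups: *mat1a* (LL0000018700) encodes the liver form of methionine adenosyltransferase, which makes S-adenosylmethionine, and *gnmt* (LL0000011485) encodes glycine N-methyltransferase, which spends it on glycine.

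Each library held 16959935 to 22439739 counts on genes. Levels are given as CPM, a gene's counts divided by the TMM-scaled library size and multiplied to a common scale, and a count of 3, taken as the lowest detectable level, corresponded to 0.133 to 0.196 CPM, which covers counting error only. Member counts ran between 14 and 4027 per library, so none was near that floor. CPM does not correct for gene length, so levels were compared between groups and not between genes. Genes were compared with edgeR's quasi-likelihood test, and a gene was called at a Benjamini-Hochberg adjusted p under 0.01 with an absolute log2 fold change over 0.7. All 10 members passed the filter on low counts at both ages. *pomgnt2* itself had 224 to 404 counts per library (13.1 to 19.9 CPM) and was not called in any comparison. Its log2 fold change was 0.09 ± 0.11 (SE) in ZKO against WT (adjusted p = 0.750) and -0.08 ± 0.17 in MZKO against MHet at 10 dpf (adjusted p = 0.837), so its mRNA level could not check the genotype labels. Individual pools stood apart from their groups in all members: WT replicate 3 was the lowest WT pool in 10 of 10 members, and among MHet pools at 10 dpf replicate 2 was the lowest and replicate 3 the highest in 10 of 10.

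**Figure D1:**
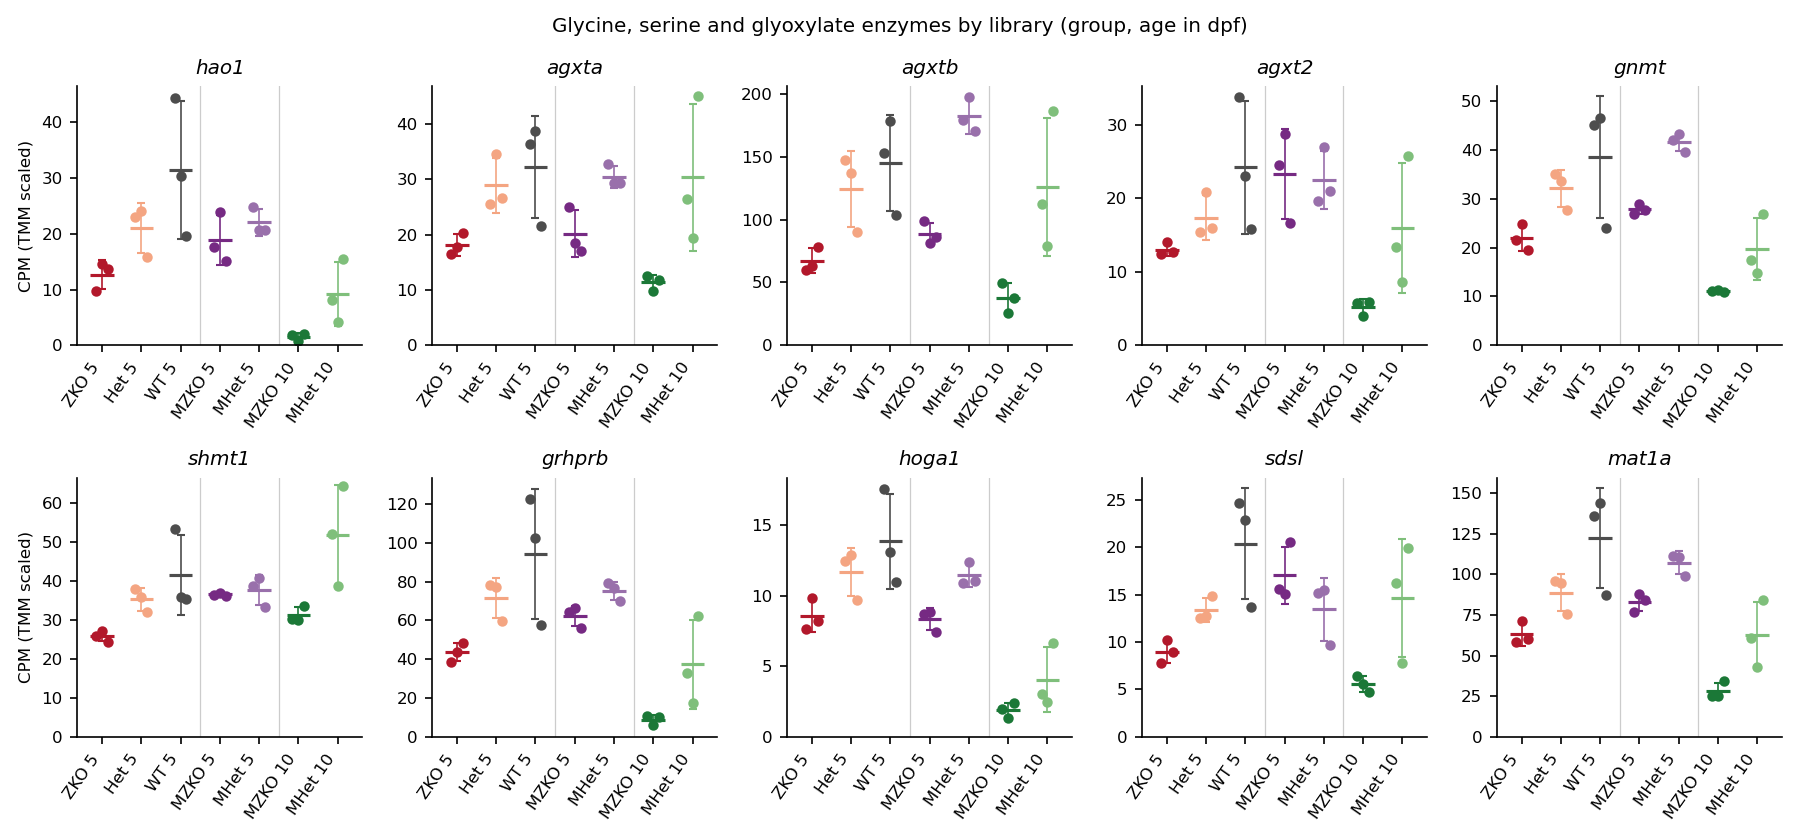
CPM (TMM scaled, linear axes from 0) of each of the 10 enzyme genes in all 21 libraries. Points are pools, horizontal lines are group means and bars are SD (n = 3), with groups labelled by genotype and age in dpf. ZKO pools sit together at the low end of the 5 dpf groups for most genes, WT and MHet 10 dpf pools are spread widely, and MZKO pools at 10 dpf have the lowest mean of the 7 groups in 9 of 10 genes, *shmt1* being the exception.

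The comparison of ZKO with WT siblings at 5 dpf asks what loss of the larva's own *pomgnt2* does when the mother supplied a working copy. All 10 members were lower in ZKO than in WT, and the median of their log2 fold changes was -0.92 (1.89-fold), beside 0.00 over the 24846 genes tested. Of the 10, 2 members (*sdsl* and *mat1a*) fell by the edgeR test, whereas 0.519% of all genes were called lower. DESeq2 called 8 of 10 lower, against 1.81% of genes, and in 9 of 10 members every ZKO pool was below every WT pool, against 10.1% of genes. An unadjusted p under 0.05 with a lower level was reached by 10 of 10 members and by 10.1% of genes. Because the members were chosen with earlier results of these data known, these shares describe the set and do not test it. In whole larvae, fewer cells of a type and less RNA of a gene per cell cannot be told apart.

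*sdsl*, of serine breakdown, had 7.80, 10.2 and 8.98 CPM in the 3 ZKO pools, against 24.6, 22.8 and 13.7 CPM in the 3 WT pools. The groups did not overlap, and *sdsl* fell by a log2 fold change of -1.17 ± 0.21 (SE, edgeR adjusted p = 0.00690). *mat1a*, the maker of S-adenosylmethionine, had 58.3, 71.6 and 60.0 CPM in ZKO, against 136, 144 and 87.4 CPM in WT. It fell by a log2 fold change of -0.94 ± 0.15 (edgeR adjusted p = 0.00489), and again the lowest WT pool, replicate 3, lay above all ZKO pools. *shmt1*, the enzyme between serine and glycine, had 25.9, 27.1 and 24.5 CPM in ZKO, against 53.5, 36.0 and 35.3 CPM in WT. Its adjusted p passed (0.00453, edgeR), but its log2 fold change of -0.68 ± 0.12 was just short of 0.7, so it was not called.

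Among the glyoxylate genes, *hao1* had the lowest ratio. It was at 9.67, 14.6 and 13.7 CPM in ZKO, against 44.4, 30.4 and 19.6 CPM in WT, a log2 fold change of -1.30 ± 0.29 that missed the edgeR threshold (adjusted p = 0.0321). The highest ZKO pool was below the lowest WT pool. *agxtb* had 60.0, 63.4 and 78.4 CPM in ZKO, against 153, 178 and 103 CPM in WT (log2 fold change -1.10 ± 0.21, edgeR adjusted p = 0.0170), and *agxta* gave -0.82 ± 0.20 (adjusted p = 0.0352). How the counting divided reads between these paralogs is not given in the sources used here, so the separate level of each copy is uncertain, although both ratios lay below 0. *grhprb* had 38.8, 43.8 and 48.6 CPM in ZKO, against 123, 103 and 57.4 CPM in WT, with no overlap (log2 fold change -1.10 ± 0.22, edgeR adjusted p = 0.0220). *agxt2*, *hoga1* and the methyl-group gene *gnmt* had log2 fold changes of -0.89, -0.69 and -0.80 with adjusted p of 0.0879, 0.0189 and 0.0289 by edgeR. *gnmt* was the member whose groups overlapped, with 24.9 CPM in ZKO replicate 2 against 24.1 CPM in WT replicate 3.

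The number of calls changed with the pools that were used. The coefficient of variation between pools was smaller in ZKO than in WT for 10 of 10 members, with a median of 11.9% in ZKO and 28.8% in WT. Without WT replicate 3, edgeR called 10 of 10 members lower, at log2 fold changes of -0.78 to -1.55, against 2.27% of genes. With any other pool left out it called 0 or 1.

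Markers of liver and of 5 other tissues were summed in the same libraries. The summed level of 18 hepatocyte marker genes was 2547 to 2699 CPM in ZKO and 3400 to 7483 CPM in WT. All 18 markers were lower in ZKO (median log2 fold change -1.46), and edgeR called 0 and DESeq2 13 of them. Sums over 12 kidney tubule markers were 282 to 333 CPM in ZKO and 334 to 502 CPM in WT, and over 9 enterocyte markers 781 to 1063 CPM and 872 to 1522 CPM. The 6 genes listed under yolk syncytial layer summed to 3268 to 3716 CPM in ZKO and 3525 to 7825 CPM in WT. Whether that list reads that layer was not tested. Skeletal muscle markers, 12 genes, summed to 93978 to 98646 CPM in ZKO and 82153 to 87307 CPM in WT, and 12 exocrine pancreas markers to 1325 to 2053 CPM in ZKO and 600.2 to 2751 CPM in WT. WT replicate 3 gave the low end of the WT range in every list except skeletal muscle, where it gave the high end. Of the 5 other lists, edgeR called 1 kidney tubule gene lower (*slc22a2*, log2 fold change -0.80). It also called 1 gene of the yolk syncytial layer list lower (*hnf4a*, -1.44), against 0.519% of all genes. DESeq2 called 3 genes of each of these lists lower, against 1.81% of all genes. Neither tool called a gene of the enterocyte, exocrine pancreas or skeletal muscle lists. No listed marker was at 0 in any library. The part of these markers in the members' differences was not tested.

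**Figure D2:**
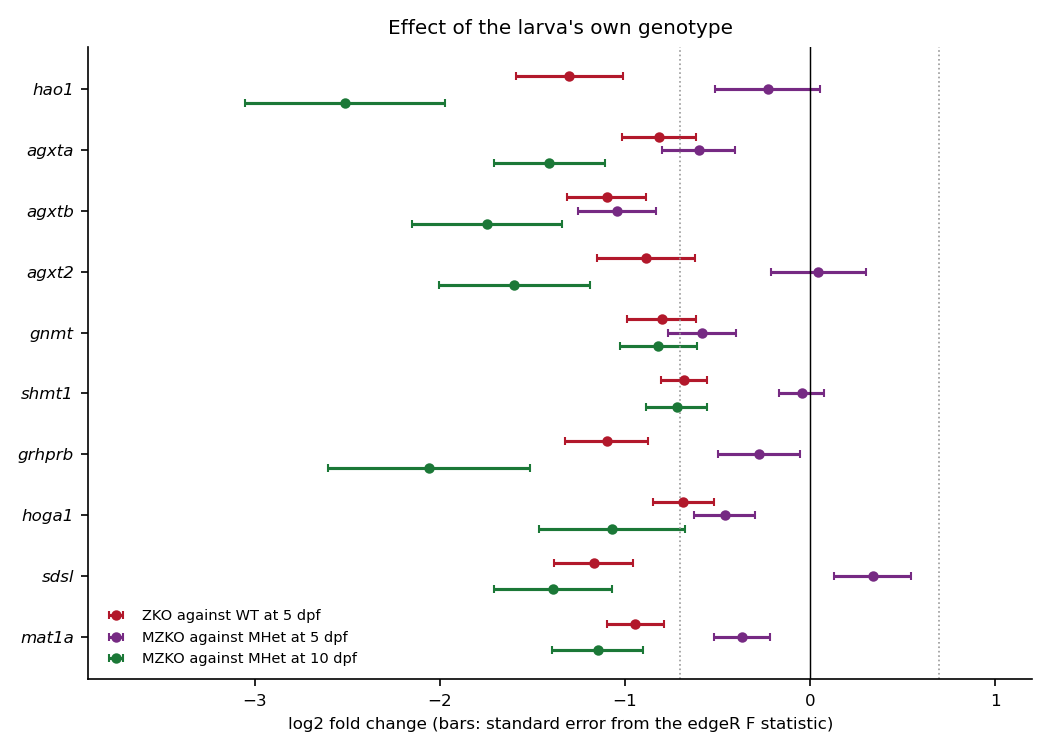
Log2 fold changes of the 10 enzyme genes for ZKO against WT at 5 dpf (red), MZKO against MHet at 5 dpf (purple) and MZKO against MHet at 10 dpf (green), with bars for the standard error from edgeR's F statistic and dotted lines at 0.7 in either direction. All red and green points lie left of 0, while purple points run between -1.04 for *agxtb* and 0.34 for *sdsl*.

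Het larvae from the same crosses lay between the homozygotes, with mean levels in the order WT over Het over ZKO for 10 of 10 members. Against WT, the median log2 fold change in Het was -0.33 (-0.61 to -0.15). No member was called by edgeR, where the background was also 0% of genes. DESeq2 gave no adjusted p for 5 of the members (*hao1*, *agxta*, *agxt2*, *hoga1* and *sdsl*), which it therefore could not call. It called none of the other 5, and 0% of the 6288 genes for which it gave one. An unadjusted p under 0.05 was reached by 2 members, *sdsl* and *mat1a*, against 6.44% of genes in that direction. The pools of Het and WT overlapped for every member. The log2 fold changes were -0.61 ± 0.21 for *sdsl* and -0.46 ± 0.15 for *mat1a* (edgeR adjusted p = 0.252 and 0.242). *sdsl* had 12.5, 12.7 and 14.8 CPM in Het, against 24.6, 22.8 and 13.7 CPM in WT, where only replicate 3 of WT fell within the Het range. The hepatocyte markers were lower in Het than in WT for 18 of 18 genes (median log2 fold change -0.53) and the exocrine pancreas markers higher for 12 of 12 (median 0.73), with 0 called in either list, and their part in the members' differences was not tested.

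ZKO against Het does not use the WT pools. All 10 members were lower in ZKO, and the median of their log2 fold changes was -0.55 (-0.88 for *agxtb* to -0.41 for *agxt2*). Neither edgeR nor DESeq2 called a member, with backgrounds of 0% and 0.068% of genes. An unadjusted p under 0.05 was reached by 9 of 10 members (*agxt2* missed it), against 4.02% of genes, and 9 of 10 did not overlap, against 6.65% of genes. The exception to the separation was *hoga1*, with 7.63, 9.83 and 8.22 CPM in ZKO and 12.5, 12.8 and 9.70 CPM in Het. *agxtb*, with 60.0, 63.4 and 78.4 CPM in ZKO and 147, 137 and 90.0 CPM in Het, had the lowest adjusted p (0.393, edgeR). The hepatocyte markers were lower in ZKO for 18 of 18 genes here too (median log2 fold change -0.87), as were the exocrine pancreas markers for 12 of 12 (median -0.76), with 0 called by edgeR or DESeq2. Their part in the members' differences was not tested.

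MZKO and MHet larvae at 5 dpf differ in their own genotype and share -/- mothers. Here the members divided: 8 were lower and 2 higher in MZKO (median log2 fold change -0.32). edgeR called no member lower, against 0.302% of genes, while DESeq2 called 1 (*agxtb*), against 0.543%. An unadjusted p under 0.05 was reached by 5 of 10 members, all lower (*agxta*, *agxtb*, *gnmt*, *hoga1* and *mat1a*), against 11.7% of genes, and 6 of 10 were lower with no overlap, against 16.2%.

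*agxtb* had 98.5, 81.7 and 85.9 CPM in MZKO, against 179, 198 and 170.4 CPM in MHet. These pools were far apart, with a log2 fold change of -1.04 ± 0.21, and the adjusted p narrowly missed the threshold with edgeR (0.0103) and passed with DESeq2 (4.95e-05). Its paralog *agxta* had 25.0, 18.5 and 17.0 CPM in MZKO and 32.8, 29.4 and 29.3 CPM in MHet (log2 fold change -0.60 ± 0.20, edgeR adjusted p = 0.0713). *gnmt* had 26.8, 28.9 and 27.7 CPM in MZKO and 42.0, 43.2 and 39.5 CPM in MHet (-0.58 ± 0.18, edgeR adjusted p = 0.0617). Both genes kept their groups apart, without a call, and the coefficient of variation between MZKO pools was 21.0% for *agxta* and 3.80% for *gnmt*.

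*hoga1* (-0.46), *mat1a* (-0.37) and *grhprb* (-0.27) were also lower in MZKO with no overlap and no call. For the remaining 4 members the pools of both groups overlapped. *shmt1* had 36.5, 37.0 and 36.3 CPM in MZKO, inside the MHet range of 38.8, 40.9 and 33.3 CPM (log2 fold change -0.05 ± 0.12, edgeR adjusted p = 0.873). *agxt2* gave 0.05 ± 0.26, and *hao1* had 17.7, 23.9 and 15.2 CPM in MZKO and 24.9, 20.7 and 20.7 CPM in MHet (-0.23 ± 0.28, edgeR adjusted p = 0.697). *sdsl* was on the other side of 0, at 15.6, 15.1 and 20.5 CPM in MZKO and 15.2, 15.5 and 9.64 CPM in MHet, with overlapping pools (0.34 ± 0.21, edgeR adjusted p = 0.355). The hepatocyte marker sum was 2899 to 4673 CPM in MZKO and 4599 to 4749 CPM in MHet, and 16 of 18 markers were lower (median log2 fold change -0.30). Exocrine pancreas markers were lower in 12 of 12 genes (median -0.94). The part of these markers in the result was not tested.

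The mother's genotype was compared at a fixed genotype of the larva. Between MHet and Het, both +/-, 9 members were higher and 1 lower in MHet (median log2 fold change 0.09). No member was called, against 1.86% of genes called higher by edgeR and 2.2% by DESeq2. *agxtb* alone reached an unadjusted p under 0.05, against 14.9% of genes in that direction, and it was the gene with the largest difference: 179, 198 and 170.4 CPM in MHet against 147, 137 and 90.0 CPM in Het (0.56 ± 0.21, edgeR adjusted p = 0.0946). *agxtb*, *gnmt* and *mat1a* did not overlap, which is 3 of 10 members beside 18.1% of genes. The hepatocyte markers were higher in MHet for 11 of 18 genes (median 0.10, 1 called higher by edgeR and 2 by DESeq2). The kidney tubule markers were higher for 8 of 12 (median 0.37, 2 called higher by edgeR and 3 by DESeq2). The exocrine pancreas markers were lower for 12 of 12 (median -0.90, 0 called). The part of these lists in the members' differences was not tested.

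Between MZKO and ZKO, both -/-, 9 members were higher and 1 lower in MZKO (median log2 fold change 0.45). *sdsl* rose and was the 1 member called by edgeR, against 3.1% of genes called higher, and DESeq2 called *sdsl* and *agxt2*, against 3.83%. *sdsl* had 15.6, 15.1 and 20.5 CPM in MZKO, against 7.80, 10.2 and 8.98 CPM in ZKO, so all MZKO pools were above all ZKO pools (0.92 ± 0.21, edgeR adjusted p = 0.00508). That call held without MZKO replicate 2 and was lost when any of the other 5 pools was left out. *agxt2* had 24.5, 28.7 and 16.6 CPM in MZKO and 12.3, 14.0 and 12.7 CPM in ZKO (0.84 ± 0.27, adjusted p = 0.0391 by edgeR and 0.00165 by DESeq2). *shmt1* had 36.5, 37.0 and 36.3 CPM in MZKO and 25.9, 27.1 and 24.5 CPM in ZKO; it passed the adjusted p (0.00549, edgeR) at a log2 fold change of 0.50, under the fold threshold. In 8 of 10 members the groups did not overlap, against 20.4% of genes, and the members whose pools overlapped were *agxta* and *hoga1*. The hepatocyte markers were higher in MZKO for 16 of 18 genes (median 0.92, 2 called by edgeR and 5 by DESeq2), and 4 of 12 kidney tubule markers were called higher by edgeR. The exocrine pancreas markers were lower in 12 of 12 genes (median -0.998, 0 called by edgeR and 1 by DESeq2). The part of these markers in the result was not tested.

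Among the 5 groups at 5 dpf, ZKO had the lowest mean in 9 members, WT the highest in 8 and MHet the highest in 2, *agxtb* and *gnmt*. Whether the effect of the larva's own genotype differed with that of the mother was tested by the interaction, the MZKO to MHet difference minus the ZKO to Het difference. No member was called by edgeR or DESeq2, against 0.189% and 0.975% of genes called higher. An unadjusted p under 0.05 was reached by 2 members, both higher (*sdsl* and *shmt1*), against 8.88% of genes. *sdsl* had an interaction of 0.90 ± 0.30 on the log2 scale (adjusted p = 0.122 by edgeR and 0.0346 by DESeq2), and *shmt1* one of 0.40 ± 0.17 (edgeR adjusted p = 0.231).

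At 10 dpf MZKO and MHet siblings were compared again in the 6 pools of that age. The paper states that larvae for this age were kept apart by genotype until sampling. Genotype and housing therefore cannot be told apart at 10 dpf. All 10 members were lower in MZKO, and in all 10 every MZKO pool lay below every MHet pool, against 13.4% of genes. The median log2 fold change was -1.40 (2.63-fold), against 0.01 over the 23597 genes tested. edgeR called 0 members, with adjusted p between 0.0551 and 0.166; it called 0.0254% of all genes lower, so few genes of any kind passed in 6 pools. An unadjusted p under 0.05 with a lower level was reached by 10 of 10 members and by 11.4% of genes, and DESeq2 called 9 of 10 lower, against 2.48% of genes. The count of calls thus differed between the tools, while the separation of the pools held for each member.

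*hao1*, the source of peroxisomal glyoxylate, was the most different. It had 1.92, 0.816 and 2.02 CPM in MZKO, against 8.09, 4.16 and 15.4 CPM in MHet. The lowest of these values came from 14 counts, the smallest member count in the series. Its log2 fold change was -2.51 ± 0.54, with an adjusted p of 0.0684 by edgeR and 8.51e-07 by DESeq2. *grhprb*, which removes glyoxylate by reduction, had 10.6, 6.06 and 10.2 CPM in MZKO and 32.9, 17.2 and 62.4 CPM in MHet (log2 fold change -2.06 ± 0.55, adjusted p = 0.135 by edgeR and 0.00686 by DESeq2). MHet replicate 3 was the highest and MHet replicate 2 the lowest MHet pool for both genes, and the lowest MHet pool still lay above all MZKO pools.

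The aminotransferase genes followed in size. *agxtb* had 49.2, 25.8 and 37.5 CPM in MZKO and 112, 79.2 and 186 CPM in MHet (log2 fold change -1.75 ± 0.40, edgeR adjusted p = 0.105). *agxta* had 12.5, 9.91 and 11.8 CPM in MZKO and 26.5, 19.4 and 45.1 CPM in MHet (-1.41 ± 0.30, edgeR adjusted p = 0.0661). *agxt2*, whose log2 fold change between these genotypes was 0.05 at 5 dpf, had 5.75, 3.96 and 5.94 CPM in MZKO and 13.4, 8.66 and 25.8 CPM in MHet (-1.60 ± 0.41, edgeR adjusted p = 0.0980). *hoga1*, at the end of hydroxyproline breakdown, was low in both groups, with 1.96, 1.34 and 2.39 CPM in MZKO and 3.02, 2.45 and 6.67 CPM in MHet. Its gap was the narrowest, and it was the member that DESeq2 did not call (-1.07 ± 0.40, adjusted p = 0.166 by edgeR and 0.0999 by DESeq2).

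For serine and methyl groups the differences were smaller in most genes. *sdsl* had 6.39, 5.54 and 4.77 CPM in MZKO and 16.2, 7.83 and 19.9 CPM in MHet (log2 fold change -1.39 ± 0.32, edgeR adjusted p = 0.0663). *mat1a* had 25.2, 25.5 and 34.1 CPM in MZKO and 60.8, 43.2 and 84.1 CPM in MHet (-1.15 ± 0.25, edgeR adjusted p = 0.0664). *gnmt* was at 11.1, 11.3 and 11.0 CPM in the MZKO pools, almost without spread, and at 17.4, 14.7 and 26.9 CPM in MHet (-0.82 ± 0.21, edgeR adjusted p = 0.0687). *shmt1* had the fold change nearest to 0 and the lowest adjusted p of the members, with 30.3, 30.1 and 33.7 CPM in MZKO and 52.2, 38.9 and 64.4 CPM in MHet (-0.72 ± 0.16, edgeR adjusted p = 0.0551).

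The spread between pools again stood on one side: the coefficient of variation was smaller in MZKO than in MHet for 10 of 10 members, with medians of 19.4% in MZKO and 43.7% in MHet. Without MHet replicate 2, the lowest MHet pool, edgeR called 5 of 10 members lower (*hao1*, *agxta*, *shmt1*, *sdsl* and *mat1a*), against 0.813% of genes; with any other pool left out it called 0. The hepatocyte marker sum was 937 to 1459 CPM in MZKO and 2465 to 5734 CPM in MHet, and all 18 markers were lower (median log2 fold change -2.29, 0 called by edgeR and 17 by DESeq2). Sums of enterocyte markers were 323 to 772 CPM in MZKO and 953 to 1534 CPM in MHet. In the same order, kidney tubule markers summed to 253 to 301 CPM and 342 to 477 CPM. Exocrine pancreas markers summed to 1532 to 4115 CPM and 6589 to 8291 CPM, and skeletal muscle markers to 61636 to 67166 CPM and 84035 to 91864 CPM. The genes listed under yolk syncytial layer summed to 1246 to 2233 CPM and 3809 to 6598 CPM. In MHet at 5 dpf that sum was 4776 to 5425 CPM. Whether this list reads that layer at either age was not tested. The part of these lists in the members' differences was not tested.

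Because the hepatocyte markers moved in the same libraries, the members were also set against them. Summed over the 10 members, levels ranged between 120 and 667 CPM across the 21 libraries, a 5.54-fold range, and the hepatocyte sum had a 7.99-fold range. The ratio of the sums stayed between 8.49% and 12.8%, a 1.51-fold range. It was 10.9 ± 0.641% in ZKO, 11.0 ± 0.807% in Het and 10.5 ± 1.42% in WT at 5 dpf (SD, n = 3 each). In groups from -/- mothers at 5 dpf it was 10.6 ± 2.09% in MZKO and 11.6 ± 0.630% in MHet. These 5 groups overlapped, so relative to the hepatocyte sum the sum of the members did not separate ZKO from WT or MZKO from MHet at 5 dpf. Both sums are weighted towards their most abundant genes, and the gap between medians over single genes varied with the comparison. From WT to ZKO the markers had a median of -1.46 on the log2 scale, beside -0.92 for the members. From ZKO to MZKO these medians were 0.92 and 0.45, and for MZKO against MHet at 5 dpf -0.30 and -0.32. For MZKO against MHet at 10 dpf they were -2.29 and -1.40. The gaps between medians were not tested. At 10 dpf the ratio of the sums was 11.8 ± 1.17% in MZKO and 9.58 ± 0.231% in MHet, with every MZKO pool above every MHet pool.

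**Figure D3:**
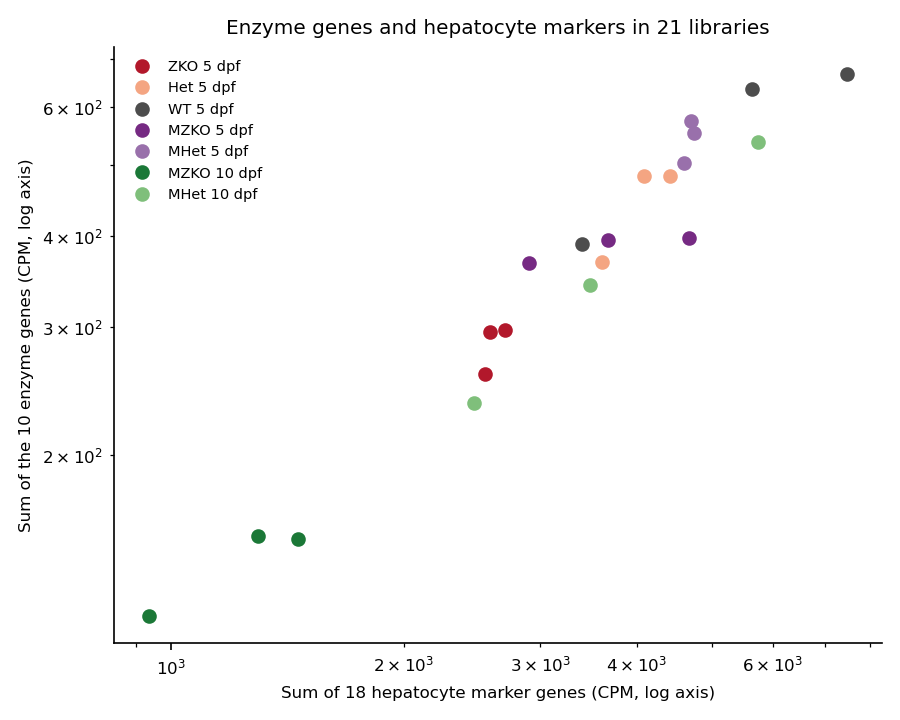
Summed CPM of the 10 enzyme genes (vertical, log axis) against summed CPM of 18 hepatocyte marker genes (horizontal, log axis), with a point for each of the 21 libraries coloured by group and age. The libraries lie along a rising band, with the MZKO pools at 10 dpf at the low end (120 to 155 CPM of enzyme genes) and 2 WT pools at the high end.

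Single members departed from that common ratio at 10 dpf. *hao1* was 0.124 ± 0.0326% of the hepatocyte sum in MZKO and 0.223 ± 0.0507% in MHet (SD, n = 3 each), a log2 ratio of -0.84 with no overlap. The sum is weighted towards the most abundant markers: the median log2 fold change of the 18 markers was -2.29, beside -2.51 for *hao1* itself, so *hao1* was lower relative to the sum and near the median marker. *shmt1* was the opposite case, at 2.62 ± 0.514% in MZKO and 1.40 ± 0.241% in MHet, a log2 ratio of 0.91 with no overlap. *gnmt* (0.84), *hoga1* (0.60), *mat1a* (0.50) and *agxta* (0.28) were also higher relative to the sum, with no overlap, whereas *agxtb*, *agxt2*, *grhprb* and *sdsl* overlapped. All 10 members were themselves lower in MZKO, so a higher ratio means only that a member was lower by less than the sum. That sum averaged 1231 CPM in MZKO and 3895 CPM in MHet. How many of all genes separate on this ratio was not counted. In MZKO against MHet at 5 dpf, *agxtb* was 2.46 ± 0.636% of the hepatocyte sum in MZKO and 3.89 ± 0.270% in MHet, a log2 ratio of -0.66 with no overlap, and the other 9 overlapped. In ZKO against WT, *agxt2* was the 1 member without overlap, at 0.498 ± 0.0177% in ZKO and 0.442 ± 0.0286% in WT. These ratios are descriptions without a test.

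**Figure D4:**
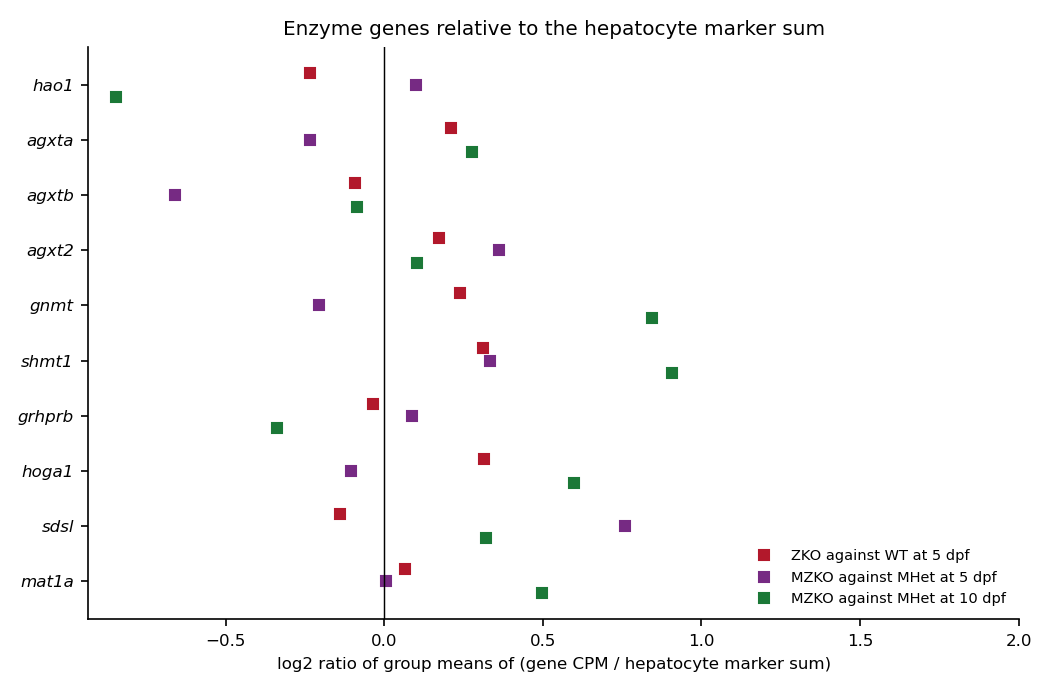
Log2 ratio of group means of each enzyme gene's CPM divided by the hepatocyte marker sum of its library, for ZKO against WT at 5 dpf (red), MZKO against MHet at 5 dpf (purple) and MZKO against MHet at 10 dpf (green). Zero means that a gene differed as the summed CPM of the hepatocyte markers did, which is not the median change of those markers. At 10 dpf *hao1* is at -0.84 and *gnmt* and *shmt1* are at 0.84 and 0.91.

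Levels at 5 and 10 dpf were compared within each genotype in a fit of all 21 libraries. In MHet, 8 members were lower and 2 higher at 10 dpf, and edgeR called 3 lower, against 6.72% of genes; 7.2% were called higher. *hoga1* fell by a log2 fold change of -1.53 ± 0.26 (edgeR adjusted p = 7.71e-05), with 3.02, 2.45 and 6.67 CPM at 10 dpf against 10.9, 12.4 and 11.0 CPM at 5 dpf. *gnmt* (-1.09 ± 0.21, edgeR adjusted p = 0.000473) and *mat1a* (-0.78 ± 0.21, edgeR adjusted p = 0.00861) also fell. The calls of *hoga1* and *gnmt* held with each of the 6 pools left out in turn, while that of *mat1a* held in 1 of these 6 fits, the fit without MHet 10 dpf replicate 3, and was lost in the others (log2 fold changes of -1.05 to -0.58). *agxta* (-0.02), *sdsl* (0.12) and *shmt1* (0.46) were near or above 0 and were not called. Without MHet 10 dpf replicate 3, *hao1* and *grhprb* were called as well, making 5, and without any other pool 2 were called.

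In MZKO, all 10 members were lower at 10 dpf and edgeR called 8, against 10.9% of genes called lower and 8.08% called higher. *hao1* fell by a log2 fold change of -3.55 ± 0.48 (edgeR adjusted p = 2.83e-05), with 1.92, 0.816 and 2.02 CPM at 10 dpf against 17.7, 23.9 and 15.2 CPM at 5 dpf. *grhprb* also fell (-2.79 ± 0.39, edgeR adjusted p = 4.80e-05). The other genes that fell were *agxt2* (-2.15), *hoga1* (-2.12), *sdsl* (-1.61), *mat1a* (-1.55), *gnmt* (-1.32) and *agxtb* (-1.24), with edgeR adjusted p of at most 0.00434. The call of *agxtb* held in 2 of 6 leave-one-out fits, those without MZKO 5 dpf replicate 2 or MZKO 10 dpf replicate 1, and the other 7 calls held in all 6. *agxta* (-0.82, edgeR adjusted p = 0.0227) and *shmt1* (-0.22, edgeR adjusted p = 0.246) were not called. The hepatocyte markers were lower at 10 dpf in 17 of 18 genes in MZKO (median -2.21, 12 called by edgeR) and in 12 of 18 in MHet (median -0.17, 1 called lower and 1 higher). The exocrine pancreas markers were higher at 10 dpf in 12 of 12 genes in both genotypes (median 1.98 in MZKO and 2.38 in MHet). The part of these markers in the members' differences was not tested.

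**Figure D5:**
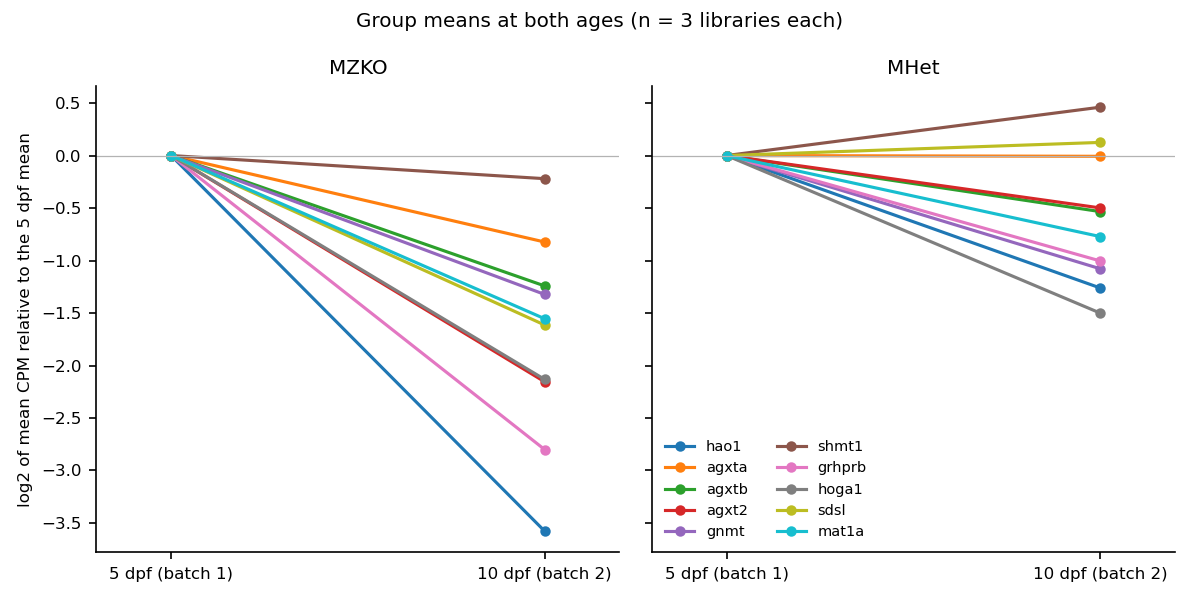
Log2 of the group mean CPM of each enzyme gene at 10 dpf relative to the same group's mean at 5 dpf, in MZKO (left) and MHet (right), n = 3 libraries at each point. Every line ends below 0 in MZKO, with *hao1* lowest, whereas in MHet *shmt1* and *sdsl* end above 0. The ages are also the 2 batches.

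The difference between the MZKO effect at 10 dpf and that at 5 dpf uses siblings within each batch. A change of the effect with age cannot be told apart from a change with batch, or with housing by genotype at 10 dpf. It was below 0 for 10 of 10 members, with a median of -0.79 on the log2 scale. edgeR called *sdsl* alone, against 2.25% of genes called lower and 1.35% called higher, with a difference of -1.72 ± 0.40 (adjusted p = 0.00916). DESeq2 called 4 (*hao1*, *agxt2*, *grhprb* and *sdsl*), against 4.86% of genes. For *hao1* the difference was -2.26 ± 0.63 and for *grhprb* -1.78 ± 0.52 (edgeR adjusted p = 0.0268 and 0.0358), while *gnmt* had -0.24 ± 0.30 (edgeR adjusted p = 0.654). The hepatocyte markers gave a difference below 0 in 17 of 18 genes (median -1.96), of which edgeR called 1 and DESeq2 11, and their part in the members' difference was not tested.

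The rest of the pathway was read from 7 lists of 63 symbols that leave out the 10 members, of which 56 were in the count table. In ZKO against WT, 44 of 55 tested genes were lower (median log2 fold change -0.22), and edgeR called 3, all lower, against 0.519% of all genes called lower. *shmt2*, the mitochondrial counterpart of *shmt1*, fell (-0.80 ± 0.14, edgeR adjusted p = 0.00556). *amt*, of the glycine cleavage system, fell as well (-0.72 ± 0.15, edgeR adjusted p = 0.00833), as did *cthl*, related to cystathionine gamma-lyase of the transsulfuration route (-1.14 ± 0.23, edgeR adjusted p = 0.00777). DESeq2 called 9 lower, against 1.81% of all genes. Of these 9, 5 were folate genes, among them *mthfd1l*, *aldh1l1* and *mthfd1b* with log2 fold changes of -1.14, -1.06 and -0.73. In Het against WT and ZKO against Het, 44 and 41 of 55 were lower and 0 were called by edgeR. DESeq2 also called 0, among the genes for which an adjusted p was returned. *cthl* had a log2 fold change of -1.14 ± 0.23 in Het against WT (edgeR adjusted p = 0.099) and -0.001 ± 0.24 in ZKO against Het. Its difference was thus between WT and both siblings. *shmt2* and *amt* had -0.48 and -0.41 in Het against WT, and -0.32 and -0.32 in ZKO against Het.

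In MZKO against MHet at 5 dpf the pathway genes were divided, with 22 lower and 33 higher and 0 called by either tool. *tdh*, threonine dehydrogenase, passed the adjusted p (0.000297, edgeR) at -0.58 ± 0.09, under the fold threshold. At 10 dpf 44 of 54 were lower in MZKO (median -0.29), with 0 called by edgeR. DESeq2 called 3 pathway genes lower, against 2.48% of all genes. They included *aldh1l1* (-1.63) and *aldh4a1* (-0.82), of proline and hydroxyproline breakdown. *mat2ab*, a relative of *mat1a* of the type used outside liver in mammals, had -0.66 ± 0.11 and an edgeR adjusted p of 0.0217. The members' median of -1.40 at 10 dpf stood beside -0.29 for these lists and -2.29 for the hepatocyte markers.

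With the mother's genotype, 40 of 55 pathway genes were higher in MZKO than in ZKO. edgeR called 6 higher and 1 lower, where 3.1% of all genes were called higher and 2.5% lower. The genes that rose were *mthfd1l* (1.91), *slc26a1* (1.49), whose mammalian counterpart carries sulfate and oxalate, *cthl* (1.19), *mthfd1b* (0.95), *aldh1l2* (0.93) and *mtr* (0.72), the methionine synthase. *tdh* fell (-0.88). *slc26a1* is also a gene of the kidney tubule list. In MHet against Het, *slc26a1* rose (0.97) and *mat2ab* fell (-1.04) by edgeR, and DESeq2 called these and *mthfd1l* (0.93), which was higher and missed the edgeR threshold (adjusted p = 0.0129). By edgeR this was 1 of 55 genes higher and 1 lower, beside 462 higher and 479 lower of all 24846 genes, which is near the same share. By DESeq2 it was 2 higher, beside 2.2% of all genes. The interaction had 0 pathway genes called by edgeR and 1 called higher by DESeq2, beside 0.975% of all genes called higher by DESeq2.

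Between the ages, edgeR called 7 of 55 pathway genes lower and 6 higher in MHet, beside 6.72% and 7.2% of all genes. In MZKO it called 16 of 55 lower and 3 higher, beside 10.9% and 8.08% of all genes. The 3 genes given here were chosen after their values were seen. *mthfd1a*, a cytosolic folate enzyme, fell with log2 fold changes of -2.41 ± 0.33 in MZKO and -2.19 ± 0.31 in MHet. *ftcd*, of histidine breakdown into folate, fell with -2.95 ± 0.41 in MZKO and -1.76 ± 0.37 in MHet. *mat2ab* rose by 0.88 ± 0.12 in MZKO and 1.97 ± 0.12 in MHet, in the direction opposite to *mat1a* in both. For the difference of the MZKO effect between ages, the genes called included *mat2ab* (-1.09), *pemt* (-1.20) and *aldh1l2* (-1.23), which were lower, and *tdh* (0.89), which was higher.

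Across the 15 libraries at 5 dpf, the 45 pairs of members had a median Pearson r of 0.79 between log2 CPM values, the lowest being 0.45 (*agxtb* with *sdsl*) and the highest 0.96 (*hao1* with *grhprb*). With the hepatocyte sum, r ran between 0.66 for *sdsl* and 0.96 for *grhprb*. These libraries share the group differences given above, so the values describe how the members moved together and carry no test. The genes outside the set with the most similar pattern were *oxct1b* (0.97) for *hao1*, *gys2* (0.94), the liver glycogen synthase, for *agxta*, *bco1* (0.92) for *agxtb*, *hpn* (0.94) for *agxt2*, *slc43a2b* (0.93) for *gnmt*, *ugt5b4* (0.93) for *shmt1*, *ces2* (0.98) for *grhprb*, *thraa* (0.94) for *hoga1*, *ptprh* (0.97) for *sdsl* and *cldn15a* (0.94) for *mat1a*. *serpina1l*, a marker of the hepatocyte list, was second for *agxt2* (0.93).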

How the data were processed

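RNA from 21 pools of whole larvae was sequenced as poly-A, strand-marking libraries. The authors trimmed the first 10 bases of reads, discarded reads of Phred quality under 20, aligned with HISAT2 to GRCz11, counted reads with featureCounts on the Lawson annotation, and deposited raw counts of 36351 genes, without normalization. They tested with DESeq2. Whether counting used strand or reads with several matches is not given in the sources used here.

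From these counts, edgeR 4.0.16 in R 4.3.3 (filterByExpr, TMM, robust quasi-likelihood fits) compared groups in a fit of 15 samples at 5 dpf, a fit of 6 at 10 dpf, and a fit of 21 where both ages entered. P-values were Benjamini-Hochberg adjusted over all genes tested, with the study's thresholds of 0.01 and 0.7. SE is the size of the log2 fold change over the root of its F statistic. Totals were 16959935 to 22439739 counts per library. Between replicates, chi-square per gene was 6.28 to 23.0, so pools differed beyond counting error. The highest value was between WT replicates 1 and 3, against 6.97 between WT replicates 1 and 2. Alternatives were DESeq2 1.42.0, its size factors, other filters and thresholds, the replicate number as a block, other sample sets and each replicate left out. The fits were tested on simulated data. Figures were made with Python 3.11.15, pandas 2.3.3 and matplotlib 3.10.9.

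Named genes were the 10 members, of the other lists those called and at most the 3 with the smallest p, for each member the genes most correlated with it, and *pomgnt2*. Of the listed genes called between the ages, some are given as examples, and a gene of the lists is not reported here. The members and lists were chosen with earlier results of these data known. Of the listed symbols, 7 of the pathway lists and 1 of the marker lists were not matched. A planned description of promoter motifs was not run, and no gene coordinates are given, because the gene table at hand is of another assembly, GRCz12tu.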

Additional observations from a re-analysis of the deposited data

Results flagged for a closer look

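*sdsl* was singled out because its response to the larva's own genotype differed between the ages. The MZKO to MHet difference at 10 dpf minus that at 5 dpf was -1.72 ± 0.40 on the log2 scale (edgeR adjusted p = 0.00916, DESeq2 adjusted p = 0.000139). At 10 dpf *sdsl* had 6.39, 5.54 and 4.77 CPM in MZKO and 16.2, 7.83 and 19.9 CPM in MHet, and at 5 dpf 15.6, 15.1 and 20.5 CPM in MZKO and 15.2, 15.5 and 9.64 CPM in MHet. The difference stayed between -2.03 and -1.44 with each pool left out, and it remained called in 1 of those 12 fits, the fit without MHet 10 dpf replicate 2. No member was called for this difference without a filter on low counts, with only the groups compared, or with the replicate number as a block. Each MZKO to MHet difference lies within a batch. A change of that difference with age still cannot be told apart from a change with batch, or with housing by genotype at 10 dpf.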

How the results depend on the processing

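The count of members called changed with the tool, the thresholds, the samples in the fit and single pools left out. Calls over all genes moved with these settings too, as given in the next paragraph. Of the 10 members, edgeR called 2 lower in ZKO against WT, DESeq2 8, a fit of only the groups compared 0, edgeR on all 21 samples 0, an adjusted p under 0.05 7, and fits without 1 pool 0 to 10 (10 without WT replicate 3). In ZKO against Het the count of 0 became 1 with only the groups compared. In MZKO against MHet at 5 dpf the count of 0 became 1 with a minimum of 10 counts, with DESeq2 on 15 or 21 samples, with only the groups compared and with an adjusted p under 0.05. In MZKO against ZKO the count of 1 became 2 with DESeq2, only the groups compared, an adjusted p under 0.05 or no fold threshold, 0 with edgeR on all 21 samples, and 0 to 1 without 1 pool. In MZKO against MHet at 10 dpf the count of 0 became 9 with DESeq2, 7 and 10 with edgeR and DESeq2 on all 21 samples, and 0 to 5 without 1 pool (5 without MHet replicate 2). In MHet between ages the count of 3 became 5 with an adjusted p under 0.05 and 2 to 5 without 1 pool (5 without replicate 3 at 10 dpf, 2 without any other). For the difference of the MZKO effect between ages the count of 1 became 0 without a filter or with only the groups compared, 4 with DESeq2 or an adjusted p under 0.05, and 0 to 5 without 1 pool (5 without MHet 10 dpf replicate 2). Counts for Het against WT, MHet against Het, the interaction and MZKO between ages stayed within 1.5 times. Why these counts moved was not tested.

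Over all genes and in both directions, calls in ZKO against WT were 136 with edgeR, 435 with DESeq2 and 427 with an adjusted p under 0.05. They were 11 with only the groups compared, 23 with edgeR on 21 samples, and 23 to 596 without 1 pool. In ZKO against Het they were 0 with edgeR and 51 with only the groups compared. In MZKO against MHet at 5 dpf they were 220 with edgeR, 281 with DESeq2, 285 with only the groups compared and 367 with an adjusted p under 0.05. In MZKO against ZKO they were 1391, 1605, 1323 and 2066 in the same order. In MZKO against MHet at 10 dpf they were 10 with edgeR, 650 with DESeq2, 164 without a filter, 545 and 961 on 21 samples, and 4 to 212 without 1 pool. In MHet between ages they were 3527 with edgeR, 4596 with an adjusted p under 0.05, and 2906 to 3316 without 1 pool. For the difference of the MZKO effect between ages they were 913 with edgeR, 1462 with DESeq2 and 1954 with an adjusted p under 0.05. There they were 891 without a filter, 654 with only the groups compared, and 469 to 1337 without 1 pool (1337 without MHet 10 dpf replicate 2).

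The labels do not say whether replicate numbers pair the samples, and correlations did not settle it. Same-numbered pools at 10 dpf correlated at -0.127, 0.0811 and -0.034, and 1 of 3 correlated best with its own number. In Het against WT replicates 1 and 3 correlated best with their own number (0.0652 and 0.106) and replicate 2 did not. In ZKO against WT replicates 1, 2 and 3 did not. With the replicate number as a block, 6 members and 365 genes were called at 10 dpf, and 0 members and 786 genes for the difference between ages. In no other comparison did the block move the count of members called by over 1.5 times.

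With 1 pool left out, some uncalled members changed sign. In MZKO against MHet at 5 dpf *agxt2* ran between -0.133 and 0.239 and *shmt1* between -0.126 and 0.0188. In MHet against Het *agxta* ran between -1.87e-05 and 0.23, *hoga1* between -0.137 and 0.0519, *sdsl* between -0.0942 and 0.208, *hao1* between -0.0846 and 0.188 and *grhprb* between -0.0379 and 0.14. In MZKO against ZKO *hoga1* ran between -0.104 and 0.0783 and *agxta* between -0.0385 and 0.255. For the interaction *agxta* ran between -0.123 and 0.17, *agxtb* between -0.276 and 0.035, *gnmt* between -0.112 and 0.0695 and *hoga1* between -0.0822 and 0.102. In MHet between ages *agxta* ran between -0.419 and 0.217 and *sdsl* between -0.175 and 0.413, and for the difference between ages *gnmt* ran between -0.404 and 0.052. The directions in ZKO against WT, Het against WT, ZKO against Het and MZKO against MHet at 10 dpf held for all 10 members in every fit.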

Other observations

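Set against the hepatocyte marker sum, several members also differed between the ages. *hao1* was 0.124 ± 0.0326% of that sum at 10 dpf and 0.505 ± 0.0209% at 5 dpf in MZKO (a log2 ratio of -2.02), and 0.223 ± 0.0507% and 0.472 ± 0.0462% in MHet (-1.08). *grhprb* had log2 ratios of -1.24 in MZKO and -0.82 in MHet and *hoga1* -0.57 and -1.28, each with no overlap between ages. *agxta* ran the other way, at 0.77 in MZKO and 0.26 in MHet, as did *shmt1*, at 1.37 and 0.80, again with no overlap. The levels of *agxta* and *shmt1* themselves did not rise in MZKO (log2 fold changes of -0.82 and -0.22). There the mean hepatocyte sum was 1231 CPM at 10 dpf and 3747 CPM at 5 dpf. In MHet their own log2 fold changes were -0.02 and 0.46, without a call. *sdsl* overlapped between the ages in both genotypes (-0.04 in MZKO and 0.40 in MHet). How many of all genes separate between the ages on this ratio was not counted. These ratios were not tested, and age and batch cannot be told apart.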
